A study of Homo sapiens with 4 samples.

Results

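The 34 genes described here encode proteins that work in the nucleolus to make ribosomes. They were chosen by name, as the rows of the deposited table that carry 1 of 34 listed gene symbols and lie on an assembled human chromosome, a rule that uses no measured value, although the list of symbols was drawn up with earlier results of these data known. They are 34 of 62077 rows in all, of which 56423 lie on assembled chromosomes under an unrepeated gene identifier. Among these, 15057 had a mean expression of at least 1 FPKM (fragments per kilobase of transcript, scaled to the mapped fragments of the library), and all 34 genes were among them. The genes are spread over 16 chromosomes, with 7 on chromosome 2 and 5 on chromosome 5.

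The study sequenced mRNA libraries from FaDu cells, a line of squamous carcinoma cells that came from the lower pharynx, to ask how TET1 takes part in the response to low oxygen. TET1 is an enzyme that oxidises methylated cytosine in DNA. The 4 groups crossed 2 oxygen states with 2 knockdown states and each held 1 library: N-scr and N-si were kept in normoxia, while H-scr and H-si spent 19 h in hypoxia, at 1% O2 in a gas mix that held nitrogen at 94% and CO2 at 5%. N-scr and H-scr carried a scrambled control sequence and N-si and H-si a sequence against TET1, called TET1-si in the labels. Per the study's methods both were short hairpin RNAs delivered by lentivirus, so all 4 groups had been infected, and the infected cells are called clones.

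Ribosome production starts in the nucleolus, where RNA polymerase I transcribes ribosomal DNA into a long precursor. Small nucleolar ribonucleoproteins (snoRNPs) modify the precursor, the small subunit processome cuts and folds the part that becomes the 40S subunit, and a separate set of factors assembles the 60S subunit. The work takes a large part of the energy of a growing cell. Many of its genes are known targets of the transcription factor MYC.

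Each of the 34 genes had a lower FPKM in hypoxia than in normoxia, whichever hairpin the cells carried. The median log2 change in hypoxia, taken throughout on log2(FPKM + 0.1), was -1.10 with the scrambled and -1.08 with the TET1-si hairpin, against medians of 0.05 and 0.03 over all 15057 genes. A change of at least 2-fold downward was reached by 22 of the 34 genes in scrambled cells, where 4.53% of all genes reached it. In TET1-si cells 22 of 34 reached it, against 8.66% of all genes. With 1 library per group there is no replicate check and no test for these or any later values. In a bulk library, fewer cells of a type and less RNA per cell cannot be told apart.

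TET1-si went with smaller differences. The median change was -0.39 under hypoxia and -0.29 under normoxia, where the medians of all genes were 0.10 and 0.15. Of the 34 genes, 3 were at least 2-fold lower under hypoxia (8.35% of all genes), namely FBL, TCOF1 and NOP58, and 2 under normoxia (5.56% of all genes), namely WDR12 and FBL. None of the 34 was 2-fold higher in any of the 4 comparisons, while 12% to 12.9% of all genes were. Low-expressed genes weigh on that share. Of the 9648 genes at or above the mean level of UTP20, the lowest member, 724 and 661 were 2-fold higher in hypoxia in scrambled and TET1-si cells. With TET1-si 723 were under hypoxia and 722 under normoxia. The split among all genes depended on the scaling: with median-of-ratios scaling 9.40% of genes were 2-fold higher and 10.6% lower under hypoxia, and 9.45% and 7.41% under normoxia.

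Of the facts that concern the whole series, the libraries stood for about 22540000 to 24640000 reads each, a depth recovered from the steps between low FPKM values. TET1 itself was scarce, at 0.129 FPKM in N-scr against 0.0493 in N-si and 0.331 in H-scr against 0.122 in H-si. Of 10 squamous epithelial markers, 10 were at 1 FPKM or more in both scrambled libraries, 8 in N-si and 9 in H-si. Their summed level was 7579 FPKM in N-scr against 2640 in N-si and 10337 in H-scr against 4598 in H-si. The abundant keratins KRT5, KRT8, KRT17 and KRT18 carried this sum. KRT14 was at 42.1 FPKM in N-scr against 0.487 in N-si and 99.9 in H-scr against 1.41 in H-si. KRT6A was at 67.7 against 0.394 and 109.2 against 0.357 FPKM. With TET1-si 8 of the 10 markers were lower and 2 higher under normoxia, and 7 were lower and 3 higher under hypoxia. CDH1 and EPCAM were higher in both oxygen states, and DSP under hypoxia. Among markers of fibroblasts and leukocytes, only COL1A1 of 6 and CD14 of 4 reached 1 FPKM in any library, and LUM, COL1A2 and CD3E were at 0 in all of them. Over the libraries the summed fibroblast markers ran from 5.30 to 37.2 FPKM and the leukocyte markers from 1.44 to 3.47. Of 3 endothelial markers in the table CDH5 and VWF reached 1 FPKM, and their sum ran from 8.93 in N-scr to 48.4 in H-si. The part of these shifts in the results below was not tested.

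A feature the choice of genes did not use is the sequence at their start sites. RefSeq promoters (GRCh38.p14, 250 bases before to 50 after the annotated start) were held for 28 of the 34 genes. BOP1, NOLC1, NOP58, RRP12, RRS1 and TCOF1 had no entry. The letters CACGTG, the canonical E-box that MYC with its partner MAX and several related factors can bind, are the same on both strands. They occurred in 14 of the 28 promoters (50%), against 8.77% of all 27305 promoters in the table, 12.8% of the 9137 whose genes had at least 1 FPKM here and 26.9% of 104 promoters of other ribosome biogenesis genes. In all 14 a copy began within 50 bases of the start, which was so for 3.51% of all promoters, 5.34% of those of genes with at least 1 FPKM and 20.2% of those of the other ribosome biogenesis genes. With only the 250 bases before the start the share was 10.7% (3 of 28), against 7.73% of all promoters, 11.4% of those of genes with at least 1 FPKM and 16.3% of the other ribosome biogenesis genes. Windows of 30 bases from 10 of the 14 genes, which come from the snoRNP, 40S and 60S groups, are printed 5′ to 3′ on the gene's strand with the motif in capitals.
FBL (chr19:39846356-39846385, minus strand): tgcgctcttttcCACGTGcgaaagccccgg
RRP9 (chr3:51941892-51941921, minus strand): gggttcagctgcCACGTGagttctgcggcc
NOP10 (chr15:34343130-34343159, minus strand): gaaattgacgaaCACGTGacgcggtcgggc
WDR43 (chr2:28894658-28894687, plus strand): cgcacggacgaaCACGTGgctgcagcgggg
UTP20 (chr12:101280083-101280112, plus strand): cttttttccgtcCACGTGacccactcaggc
BYSL (chr6:41921515-41921544, plus strand): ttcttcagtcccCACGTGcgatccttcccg
PNO1 (chr2:68157885-68157914, plus strand): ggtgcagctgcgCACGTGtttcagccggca
DDX21 (chr10:68956604-68956633, plus strand): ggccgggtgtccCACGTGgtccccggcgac
PES1 (chr22:30591880-30591909, minus strand): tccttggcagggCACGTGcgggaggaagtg
GNL3 (chr3:52686026-52686055, plus strand): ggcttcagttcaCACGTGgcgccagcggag
The other 4 were GAR1, LTV1, NOP14 and NOP2. A match describes letters in the reference sequence and shows neither binding nor use of the site.

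Members with and without the letters had close median hypoxia responses. In scrambled cells the median log2 change was -1.13 for the 14 with CACGTG and -1.04 for the 14 without, and 9 and 8 of them were at least 2-fold lower. In TET1-si cells the medians were -1.04 and -1.08, with 8 genes at least 2-fold lower on each side. Among expressed genes that are not members, the 474 with a copy within 50 bases of the start had a median of -0.13 in scrambled cells and the 7954 without the motif one of 0.02. In TET1-si cells these medians were -0.11 and -0.03. For the 1155 non-members with the motif anywhere in the promoter they were -0.04 in scrambled and -0.04 in TET1-si cells.

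**Figure D1:**
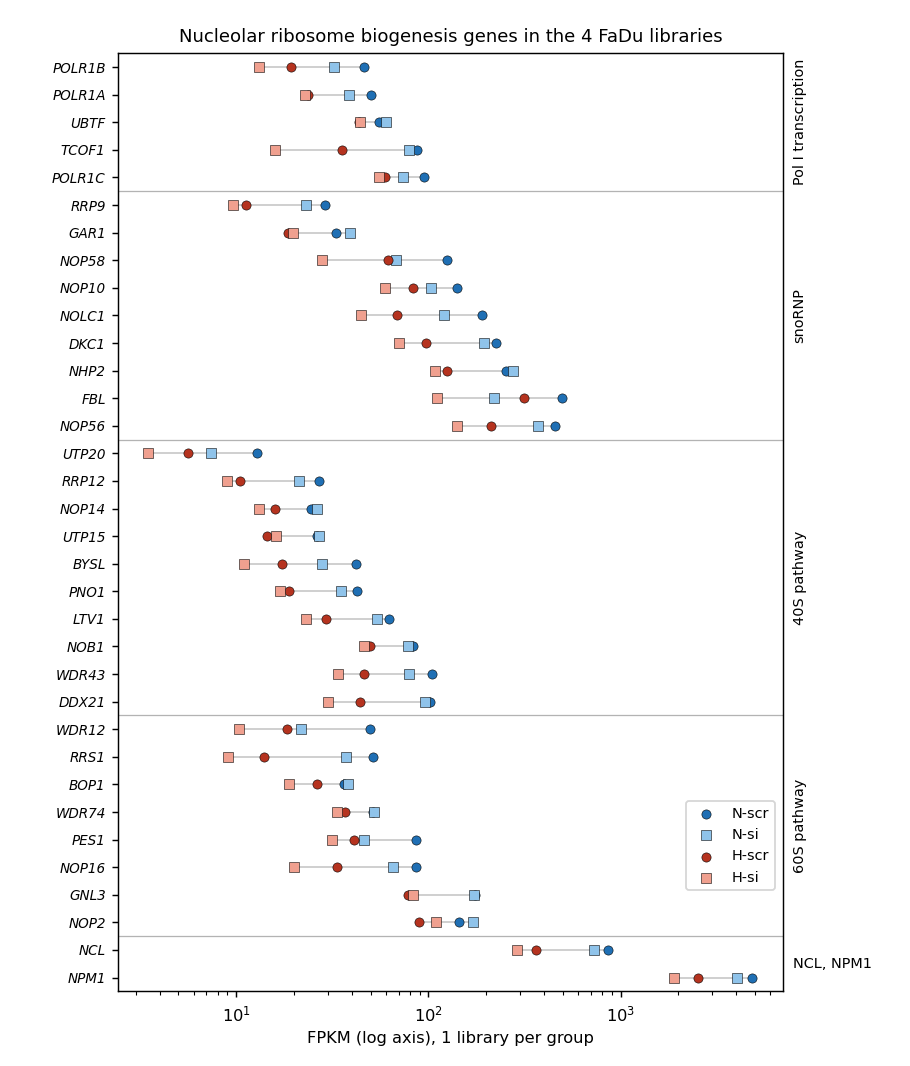
FPKM of each of the 34 genes on a log axis, 1 point per library, with genes grouped by role and sorted by level. For 33 genes both hypoxia libraries (H-scr, H-si) lie to the left of both normoxia libraries (N-scr, N-si), and FBL is the exception.

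Levels ran over a wide range. The highest mean belonged to NPM1, 453 times that of UTP20, the lowest at 7.36 FPKM. Summed over the 34 genes, expression was 9201 FPKM in N-scr against 7537 in N-si, and 4645 in H-scr against 3443 in H-si. Because NPM1 made up most of the sum, it was also taken without it, which gave 4349, 3486, 2124 and 1550 FPKM in the same order. The median gene stood at 84.8, 62.9, 38.9 and 29.0 FPKM. In the plot of levels by library, 24 of the 34 genes fell in the order N-scr, N-si, H-scr, H-si from high to low, an order that 8.6% of all genes showed. Both hypoxia libraries lay below both normoxia libraries for 33 of 34 genes, against 23.1% of all genes and 29.4% of the 9648 genes at or above the level of UTP20. The exception was FBL, which was lower in N-si than in H-scr.

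The 5 genes of RNA polymerase I transcription hold the largest hypoxia change in TET1-si cells and the smallest in scrambled cells. TCOF1 encodes treacle, a nucleolar scaffold of ribosomal DNA transcription. Its level was 87.6 and 79.1 FPKM in normoxia (N-scr, N-si) and 35.3 and 15.9 in hypoxia (H-scr, H-si). The H-si library stood apart from the rest: the hypoxia change was -1.31 in scrambled but -2.31 in TET1-si cells, with a 95% counting interval of -2.39 to -2.24 for the latter. These intervals cover counting error only, not variation between cultures. The TET1-si change of TCOF1 was -1.15 (-1.23 to -1.07) under hypoxia and -0.15 under normoxia.

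POLR1A and POLR1B encode the catalytic core of the polymerase. POLR1B was at 46.2 FPKM in N-scr against 32.4 in N-si, and 19.4 in H-scr against 13.2 in H-si, and its hypoxia change was -1.25 and -1.29 in the 2 knockdown states. POLR1A was at 50.2, 38.7, 23.7 and 22.8 FPKM in the same order, with changes of -1.08 and -0.76. Both were lower in each hypoxia library than in either normoxia library. POLR1C, a subunit shared with RNA polymerase III, had 94.6 and 73.8 FPKM in normoxia (N-scr, N-si) and 59.2 and 55.0 in hypoxia (H-scr, H-si), and stayed short of 2-fold in both states. Its locus overlaps the expressed genes XPO5 and YIPF3 on the opposite strand. The smallest hypoxia change in scrambled cells, -0.34, was that of UBTF, the factor that keeps ribosomal DNA open for polymerase I, at 55.3, 60.4, 43.7 and 43.9 FPKM.

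Of the snoRNP genes FBL had the largest TET1-si change, which under hypoxia was also the largest of all 34 members. FBL (chr19:40325098-40337054 in hg19, minus strand) encodes fibrillarin, the methyltransferase of box C/D snoRNPs. It stood at 495.8 FPKM in N-scr against 219.1 in N-si, and 313.2 in H-scr against 111.1 in H-si. Both TET1-si libraries lay below both scrambled ones, which held for 1 of the 34 members, FBL itself, and for 15.6% of all genes. The TET1-si change of FBL was -1.49 (-1.56 to -1.43) under hypoxia and -1.18 (-1.23 to -1.13) under normoxia, and FBL was the only member past 2-fold in both, against 3.06% of all genes. Its hypoxia change was -0.66 in scrambled and -0.98 in TET1-si cells, short of 2-fold in both. Its start carries the CACGTG printed above.

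NOP56 and NOP58 encode the paired core proteins that hold fibrillarin on the guide RNA. NOP58 (chr2:203130439-203168389 in hg19, plus strand) was at 125.1 and 68.2 FPKM in normoxia (N-scr, N-si) and 61.4 and 28.1 in hypoxia (H-scr, H-si), so that N-si and H-scr were close and H-si was lowest. Its TET1-si change was -1.13 under hypoxia and -0.87 under normoxia, and its hypoxia change was -1.02 and -1.28 in scrambled and TET1-si cells. NOP56 was higher throughout, at 455.7, 371.9, 211.9 and 141.6 FPKM, with hypoxia changes of -1.10 and -1.39. RRP9, a protein specific to the U3 snoRNP that guides the first cuts of the precursor, was scarce at 28.9, 23.1, 11.3 and 9.63 FPKM and changed by -1.35 and -1.25.

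The box H/ACA snoRNPs convert uridine to pseudouridine, and 4 members encode their core. DKC1, the pseudouridine synthase dyskerin, had 223.8 FPKM in N-scr against 194.6 in N-si, and 97.0 in H-scr against 70.2 in H-si, and its hypoxia change was -1.21 and -1.47. NHP2 had 251.8, 274.8, 125.3 and 108.8 FPKM and was past 2-fold in both states at -1.01 and -1.34. Its highest library was N-si rather than N-scr. The other two core genes stayed short of 2-fold in both states. GAR1 was at 32.9, 39.0, 18.7 and 19.7 FPKM (-0.81 and -0.98), and NOP10 at 141.4, 103.5, 82.7 and 59.2 FPKM (-0.77 and -0.81). NOLC1, the chaperone of both snoRNP classes, showed the largest hypoxia change of the snoRNP genes in scrambled cells, -1.46, and one of -1.43 in TET1-si cells, from 189.1 and 120.0 FPKM in normoxia to 68.8 and 44.3 in hypoxia.

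**Figure D2:**
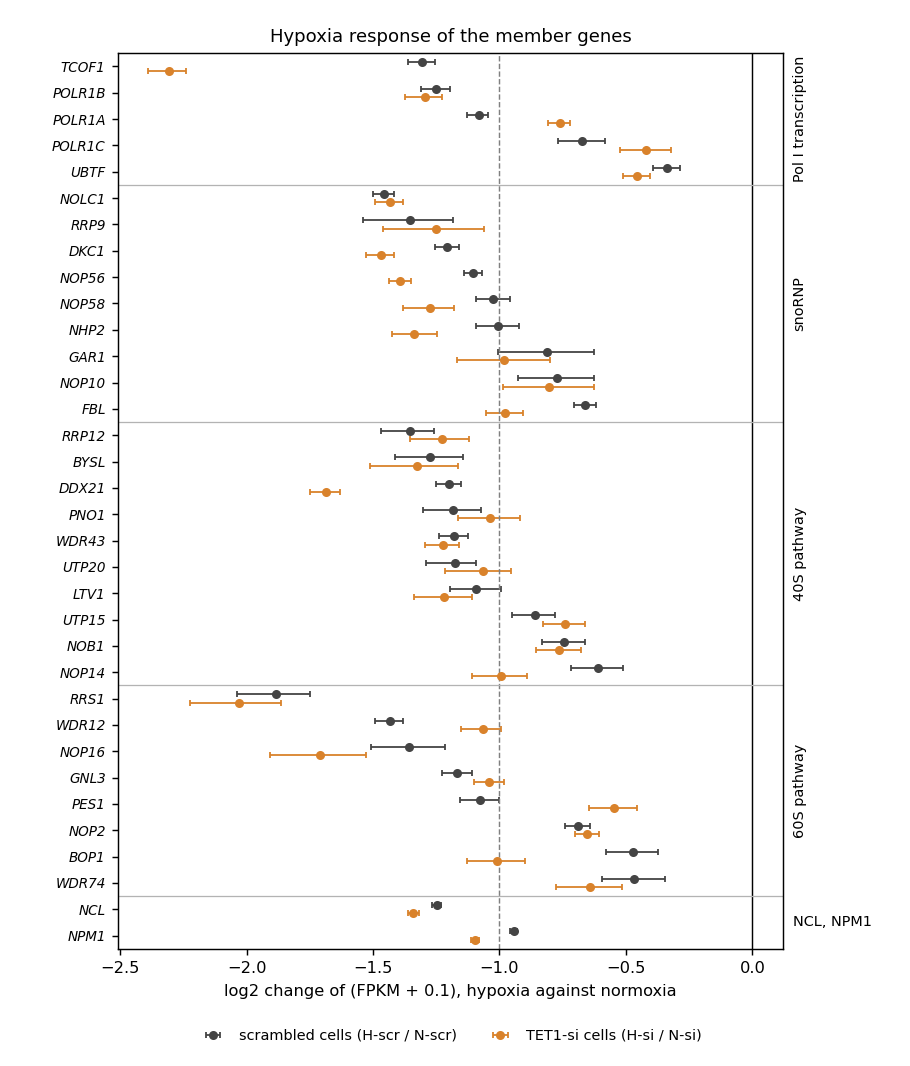
Log2 change of (FPKM + 0.1) in hypoxia against normoxia for each gene, with the scrambled and the TET1-si hairpin, grouped by role. Bars are 95% counting intervals from 1 library per group, the dashed line marks a 2-fold decrease, and all 34 genes lie below 0 in both states.

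Of the 10 genes of the small subunit processome and 40S maturation, 7 were at least 2-fold lower in hypoxia in each knockdown state, with medians of -1.18 and -1.14. DDX21, an RNA helicase that works in both ribosomal DNA transcription and precursor processing, had 101.9 and 96.5 FPKM in normoxia (N-scr, N-si) and 44.3 and 29.9 in hypoxia (H-scr, H-si). Its change was -1.20 in scrambled and -1.69 in TET1-si cells. The normoxia libraries were close to each other and the hypoxia libraries were not.

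UTP20, UTP15, NOP14 and WDR43 are parts of the processome. UTP20 was the least expressed member at 12.9 FPKM in N-scr against 7.41 in N-si, and 5.64 in H-scr against 3.49 in H-si, and changed by -1.18 and -1.06. WDR43, at 104.2, 79.5, 46.0 and 34.0 FPKM, changed by -1.18 and -1.22. The other two were lower in hypoxia by less than 2-fold. UTP15 stood at 26.2, 26.9, 14.4 and 16 FPKM, where H-si exceeded H-scr, and NOP14 at 24.4, 26.2, 15.9 and 13.1 FPKM. UTP15 overlaps ANKRA2, which is expressed from the opposite strand at a similar level.

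The remaining 5 carry the pre-40S particle to its last cut. BYSL, the bystin scaffold, had 41.9 and 27.8 FPKM in normoxia (N-scr, N-si) and 17.3 and 11 in hypoxia (H-scr, H-si), with hypoxia changes of -1.27 and -1.33. RRP12, an export factor, had 26.9, 21.1, 10.5 and 8.95 FPKM, with changes of -1.36 and -1.23. PNO1, the partner of the endonuclease NOB1, changed by -1.18 and -1.04, and the pre-40S assembly factor LTV1 by -1.09 and -1.22. The endonuclease gene NOB1 itself had the smallest change of the 5, -0.75 and -0.76, from 83.5 and 78.2 FPKM to 49.8 and 46.0.

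Of the 8 genes of 60S assembly, 5 were at least 2-fold lower in hypoxia in each state, with medians of -1.12 and -1.03. RRS1, which brings the 5S RNA into the pre-60S particle, had the largest hypoxia change of all 34 in scrambled cells. Its level was 51.6 FPKM in N-scr against 37.2 in N-si, and 13.9 in H-scr against 9.05 in H-si. That was a change of -1.88 (-2.04 to -1.75) in scrambled cells, leaving 26.9% of the normoxic level, and one of -2.03 (-2.22 to -1.86) in TET1-si cells. RRS1 lies within the span of ADHFE1, which is expressed on the same strand, and reads shared between them cannot be told apart.

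PES1, BOP1 and WDR12 encode the trimeric PeBoW complex, required for the cut that matures the 60S RNA. Their proteins work together, but the values of the 3 genes took different courses. WDR12 (chr2:203745323-203879521 in hg19, minus strand) had 49.8 and 21.7 FPKM in normoxia (N-scr, N-si) and 18.4 and 10.3 in hypoxia (H-scr, H-si), and PES1 had 86.3, 46.1, 40.8 and 31.5 FPKM. In both genes N-si was closer to H-scr than to N-scr. BOP1 differed, at 36.4 FPKM in N-scr against 38.2 in N-si, and 26.2 in H-scr against 18.9 in H-si, with both normoxia libraries alike. The hypoxia change in scrambled cells was -1.43 for WDR12, -1.08 for PES1 and -0.47 for BOP1, and in TET1-si cells it was -1.06, -0.55 and -1.01. Under normoxia TET1-si went with changes of -1.19 (-1.25 to -1.14) in WDR12, -0.90 in PES1 and 0.07 in BOP1.

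Among the other 60S genes, NOP16 had 86.1 and 65.5 FPKM in normoxia (N-scr, N-si) and 33.5 and 19.9 in hypoxia (H-scr, H-si), and changed in hypoxia by -1.36 and -1.71. It overlaps HIGD2A on the opposite strand. GNL3, the nucleolar GTPase nucleostemin, had nearly the same level in the 2 libraries of each oxygen state, 175.5 and 171.8 FPKM in normoxia and 78.1 and 83.5 in hypoxia. NOP2, a cytosine methyltransferase of the large ribosomal RNA, was higher with TET1-si in both oxygen states, at 144.4 FPKM in N-scr against 171.5 in N-si, and 89.4 in H-scr against 109.0 in H-si. It was the only member above its scrambled library in both states under each of 4 scalings of the table. WDR74, another assembly factor, stayed short of 2-fold in hypoxia at -0.47 and -0.64, with 51.2, 52.3, 37.0 and 33.5 FPKM.

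NCL and NPM1 encode nucleolin and nucleophosmin, abundant nucleolar proteins that bind RNA and chaperone ribosome assembly. NPM1 had 4852.1 and 4050.8 FPKM in normoxia (N-scr, N-si) and 2521.6 and 1893.0 in hypoxia (H-scr, H-si), and its hypoxia change was -0.94 and -1.10. NCL had 861.8, 731.3, 362.8 and 288.6 FPKM, with changes of -1.25 and -1.34. Both genes lay in the order N-scr, N-si, H-scr, H-si. The table also lists 17 NPM1 pseudogenes, the highest at 3.77 FPKM, so the division of reads between them and NPM1 is uncertain, with a level far below its own.

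Across the 34 genes, 20 passed 2-fold downward in hypoxia with either hairpin, against 2.34% of all genes. PES1 and POLR1A passed 2-fold in scrambled cells only and BOP1 and NPM1 in TET1-si cells only. Neither state passed it for FBL, GAR1, NOB1, NOP10, NOP14, NOP2, POLR1C, UBTF, UTP15 and WDR74. The 2 hypoxia responses share no library, and over the 34 genes their Spearman correlation was 0.77 and their Pearson correlation 0.72. This is a description across genes of 2 pairs of libraries, since genes are not independent replicates. Counting intervals, which were computed for the members only, lay below 0 for each of the 34 genes in each state.

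The difference of the hypoxia responses, TET1-si cells less scrambled cells, had a median of -0.07 over the members and -0.06 over all genes. Of the 34 differences 22 lay below 0, against 55.4% of all genes. With median-of-ratios scaling 21 did. With upper-quartile scaling 17 did, with medians of -0.01 over the members and 0.00 over all genes. On the deposited scaling none reached 1 in size, and 4.87% of all genes differed by 1 or more and 7.86% by -1 or less. Of the 9648 genes at or above the level of UTP20 fewer did, 211 by 1 or more and 542 (5.62%) by -1 or less. TCOF1 was nearest, at -1.0 and just short of the limit, with a counting interval of -1.09 to -0.91. BOP1 followed at -0.54 (-0.69 to -0.39) and DDX21 at -0.49, and the highest was PES1 at 0.53 (0.41 to 0.65). The counting interval lay below 0 for 13 genes, above 0 for 6 and held 0 for 15. These intervals cover counting error only and were computed for the members only, so these counts have no share of all genes beside them.

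**Figure D3:**
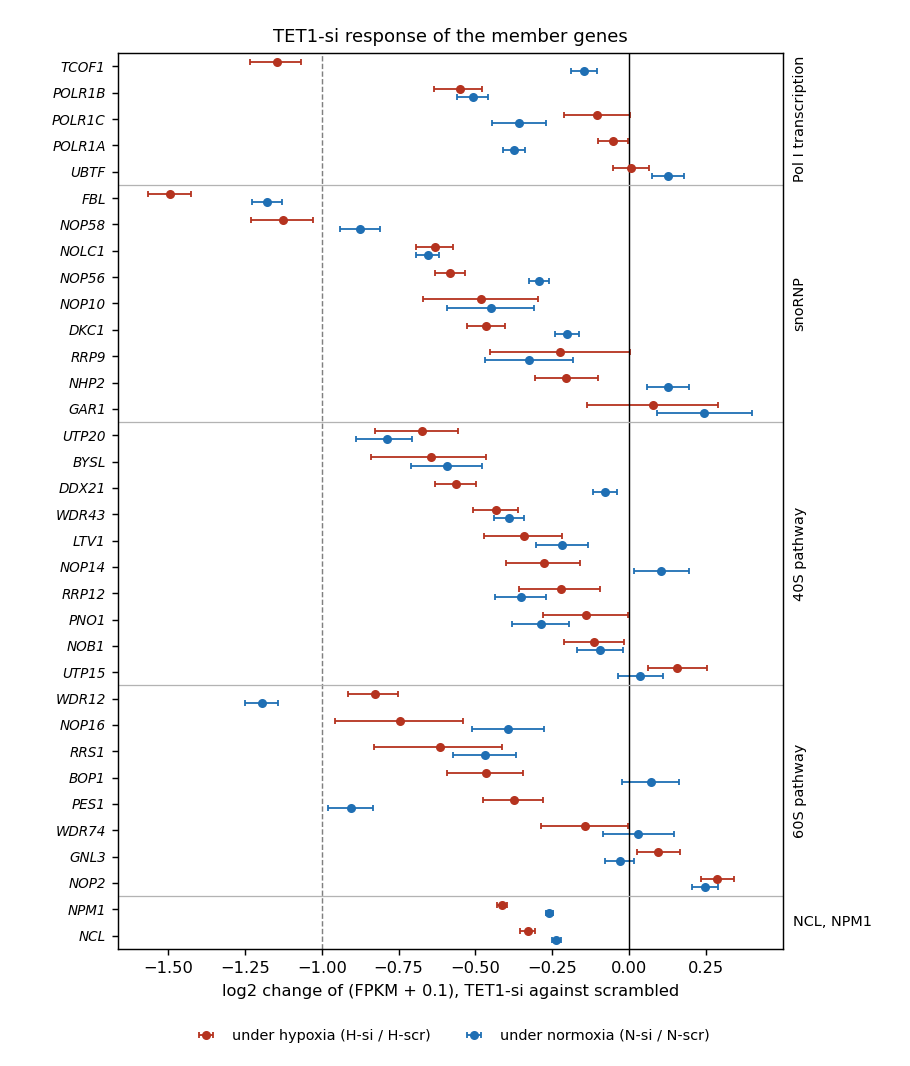
Log2 change of (FPKM + 0.1) with TET1-si against the scrambled control, under hypoxia and under normoxia, for each gene by role. Bars are 95% counting intervals and the dashed line marks a 2-fold decrease, which FBL passes in both oxygen states, TCOF1 and NOP58 under hypoxia and WDR12 under normoxia.

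With TET1-si, 29 of the 34 genes were lower than in scrambled cells under hypoxia, against 42.9% of all genes, and 26 under normoxia, against 39.0%. Of 84 cytoplasmic ribosomal proteins 50 (59.5%) were lower under hypoxia and 63 (75%) under normoxia, where the members stood at 76.5%. The plot of TET1-si responses shows that most of these differences were under 2-fold. In both oxygen states 25 genes were lower, against 28.7% of all genes, and 24 of them were lower under each of the 4 scalings. The share of all genes that were lower under each scaling was not computed. GAR1, NOP2, UBTF and UTP15 were higher in both states, though for GAR1, UBTF and UTP15 the direction flipped under another scaling. By role, the median under hypoxia and normoxia was -0.10 and -0.36 for polymerase I transcription, -0.48 and -0.32 for snoRNPs, -0.31 and -0.25 for the 40S pathway, -0.42 and -0.21 for the 60S pathway, and -0.37 and -0.25 for NCL and NPM1. The 2 TET1-si responses share no library, and over the 34 genes their Spearman correlation was 0.68 and their Pearson correlation 0.71. The study's methods picked TET1-regulated genes by 3 inequalities: over 2-fold more in H-scr than in H-si, more in H-scr than in N-scr, and no less in N-scr than in N-si. Of the 34 genes 0 met them, as each was lower in H-scr than in N-scr. Of all 62077 rows as deposited, with no minimum level, 2687 (4.33%) did. The study itself reports a smaller set of genes, so this count is not its set. The summed squamous markers given above were also lower in both TET1-si libraries, with single markers going both ways, and their part in these values was not tested.

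The other genes of the pathway gave a point of comparison. A list of 121 further ribosome biogenesis genes, all with at least 1 FPKM, had median hypoxia changes of -0.79 in scrambled and -0.79 in TET1-si cells. Of these, 35 and 31 were at least 2-fold lower and none was 2-fold higher, and 118 (97.5%) and 114 (94.2%) were lower by any amount, where 46.4% and 47.8% of all genes were. Cytoplasmic ribosomal proteins, of which 84 were measured at 1 FPKM or more, had medians of -0.24 and -0.16, with 2 and 3 genes 2-fold lower. The 77 mitochondrial ribosomal proteins had medians of -0.59 and -0.68, with 9 and 13 genes 2-fold lower. With TET1-si the 121 genes had medians of -0.07 under hypoxia and -0.09 under normoxia, with 3 and 2 genes 2-fold lower and 1 and 0 higher. By any amount 66 (54.5%) and 70 (57.9%) of them were lower. The TET1-si medians of the cytoplasmic ribosomal proteins were -0.05 and -0.17, with 50 and 63 of the 84 lower. For the mitochondrial ones they were 0.10 and 0.13, with 30 and 31 of the 77 lower.

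**Figure D4:**
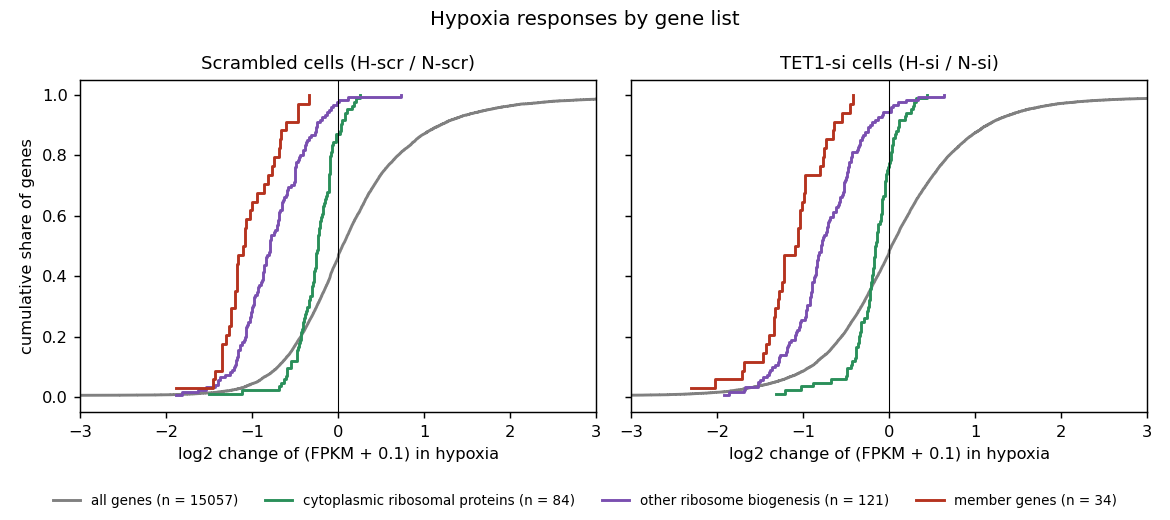
Cumulative share of genes at or below each log2 change in hypoxia, with either hairpin, for all 15057 genes and 3 gene lists. The 34 member genes lie farthest to the left, followed by 121 other ribosome biogenesis genes and 84 cytoplasmic ribosomal proteins, with medians of -1.10, -0.79 and -0.24 in scrambled cells.

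Within those 121 genes, the largest hypoxia decreases in scrambled cells were those of LYAR, WDR3 and RPF2. LYAR, a zinc finger protein of pre-ribosomal RNA processing, had 52.3 FPKM in N-scr against 39.3 in N-si, and 14.0 in H-scr against 10.3 in H-si. WDR3, a processome subunit, had 98.0, 59.3, 27.8 and 22.0 FPKM, and RPF2, the partner of RRS1 in loading the 5S RNA, had 52.9, 45.2, 17.1 and 14.0. Their changes were -1.89, -1.82 and -1.63, of the size seen in RRS1. In TET1-si cells the lowest were LYAR at -1.92, MRTO4 at -1.86 and RPF2 at -1.68. At the other end stood PIH1D1, a cofactor of snoRNP assembly, at 0.72, ZNHIT3 at 0.11 and TAF1C at 0.01 in scrambled cells, and TAF1C at 0.64, PIH1D1 at 0.33 and DDX10 at 0.19 in TET1-si cells.

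With TET1-si under hypoxia the wider list ran from EXOSC5, a subunit of the RNA exosome, at -1.44, PPAN at -1.30 and DDX55 at -1.01 to DDX47 at 0.82, SHQ1 at 0.92 and DDX10 at 1.75. DDX10 encodes an RNA helicase of the processome. Its level was 13.6 and 17.9 FPKM in normoxia (N-scr, N-si) and 6.0 and 20.5 in hypoxia (H-scr, H-si), the single 2-fold increase in the list. Under normoxia it ran from TEX10 at -1.09, DDX56 at -1.01 and RUVBL2 at -0.91 to EXOSC6 at 0.56, RCL1 at 0.73 and DDX47 at 0.97.

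Genes next to each member on its chromosome were compared with it, which was decided on with the values already known. Protein-coding genes with at least 1 FPKM within 1 Mb numbered 6 to 56 per member. The windows of NOP58 and WDR12, RRP9 and GNL3, NOP16 and NHP2, and BYSL and POLR1C overlap, so neighbours can be shared. NOP58 and WDR12 also count as neighbours of each other, as do RRP9 and GNL3. In hypoxia the neighbourhood median was below 0 for 11 of the 34 genes in scrambled and 12 in TET1-si cells. The median of the neighbourhood medians was 0.07 in scrambled and 0.04 in TET1-si cells. The member lay below its neighbourhood median for 34 and 33 of the 34 genes, though single neighbours could be lower than the member. UTP20 was the exception in TET1-si cells, at -1.06 against a median of -1.13 over its 9 neighbours.

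With TET1-si under normoxia, 31 of the 34 genes lay below their neighbourhood median, and the values of members and neighbours ran more nearly together. Over the 34 genes the Pearson correlation with the neighbourhood median was 0.64 and the Spearman correlation 0.51, whereas for hypoxia in scrambled cells they were 0.04 and 0.00. Without the 2 members whose neighbourhoods lay farthest out, NOP58 and POLR1B, the normoxic values were 0.68 and 0.43. Under hypoxia 29 of the 34 lay below their neighbourhood median, and the Pearson and Spearman correlations were 0.49 and 0.34. These values describe genes that share, within each comparison, the same 2 libraries and, in part, the same neighbours. How nearly genes outside the list ran with their own neighbours was not computed. The 12 neighbours of NOP58 had a median of -1.15, and 9 of them were lower with TET1-si. Around FBL 36 of 41 genes were lower, with a median of -0.43, and 0 of the 41 was as low as FBL. Under hypoxia 38 of these 41 were lower with TET1-si, with a median of -0.62, and 1 was lower than FBL. The 10 neighbours of WDR12 had a median of -0.38 and the 30 of PES1 one of 0.03.

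**Figure D5:**
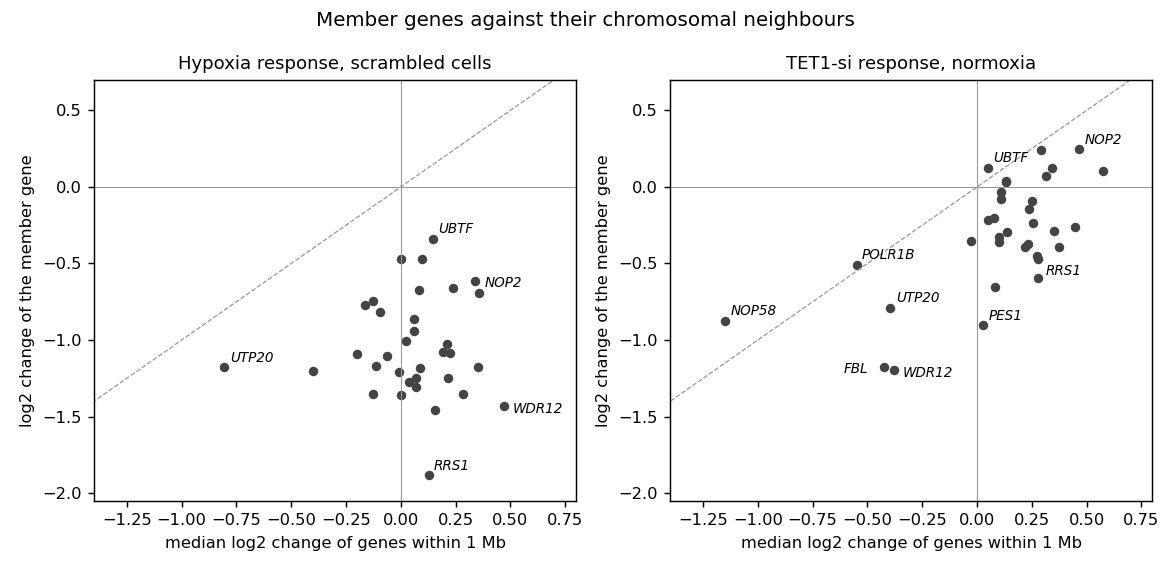
Log2 change of each member gene (vertical axis) against the median log2 change of the protein-coding genes within 1 Mb (horizontal axis), for hypoxia in scrambled cells and for TET1-si under normoxia. Points under the dashed line of equal change are members below their neighbourhood median, 34 of 34 for hypoxia and 31 of 34 for TET1-si. NOP58 lies farthest to the left in the TET1-si panel.

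Some members carry other transcripts within them. NOP56, NOP58, DKC1, WDR43, GNL3 and NCL host 22 annotated snoRNA rows in their introns or span, of which 4 were above 0 FPKM in any library. The median hypoxia change of these 6 hosts was -1.17 in scrambled and -1.31 in TET1-si cells, and that of the other 28 members was -1.08 and -1.05. Another gene with at least 1 FPKM overlapped 15 of the 34 members. Whether the counting used strand is not given in the sources used here, so reads from overlapping partners cannot be told apart.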

How the data were processed

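The data were mRNA libraries from FaDu cells, 4 in all and 1 per group. Per the labels and the study's methods, the authors aligned reads to hg19 with TopHat and computed FPKM per Ensembl gene with Cufflinks. Versions are not given in the sources used here. The labels describe single-end reads and the methods paired-end reads. The deposited FPKM values were used unscaled, on log2(FPKM + 0.1), and genes needed a mean of 1 FPKM. A change counted from 2-fold. There were no replicates, so no test was run. The 232 rows with repeated gene identifiers were left out, as were 2 rows of BOP1 and DKC1 off the assembled chromosomes. FPKM steps of single-exon genes gave each library's depth, with 97.1% to 97.8% of low values whole within 0.05, and hence approximate reads per member, 288 to 123213 per library. The reads assume the length of 1 annotated transcript per gene, which may differ from the length behind its FPKM. From these assumed reads came exact Clopper-Pearson 95% intervals, which have a median half-width of 0.070 to 0.098 on the log2 scale. Their widths are thus approximate. For the difference of the responses the intervals are approximate.

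Members and lists were chosen with earlier results of these data known. The text names all members and, of the other ribosome biogenesis genes with a mean of at least 5 FPKM, the 3 that were highest and the 3 lowest in each comparison. Alternatives changed the pseudocount, the scaling, the minimum level, the fold and the promoter window. Protein sequences were not analysed here. Scripts ran in Python 3.11.15 with numpy 2.4.6, pandas 2.3.3, scipy 1.17.1 and matplotlib 3.10.9.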

Additional observations from a re-analysis of the deposited data

Results flagged for a closer look

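For 5 genes the TET1-si difference had opposite signs under hypoxia and under normoxia. None of these differences was tested, since each group held 1 library, and the opposite signs depend on the scaling. Under median-of-ratios and upper-quartile scaling each of the 5 genes was lower with TET1-si in both oxygen states, and under TPM GNL3 was higher in both, at 0.16 under hypoxia and 0.02 under normoxia. The values that follow are those of the deposited scaling.

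NHP2, a core protein of box H/ACA snoRNPs, had a log2 change of -0.20 under hypoxia and 0.13 under normoxia, a difference of -0.33. NOP14, of the small subunit processome, had -0.28 and 0.10, a difference of -0.38. For BOP1 of the PeBoW complex the values were -0.47 and 0.07, and they differed by -0.54, the most of the 5. WDR74, a 60S assembly factor, had -0.14 and 0.03, a difference of -0.18. In GNL3, or nucleostemin, the order was the other way round, with 0.09 under hypoxia and -0.03 under normoxia, a difference of 0.13.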

How the results depend on the processing

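No alternative reversed the median of the 34 genes in any comparison, and hypoxia was lower for all 34 in both knockdown states under the deposited scaling, TPM, median-of-ratios and upper-quartile scaling. Rescaling to TPM gave hypoxia medians of -0.98 and -0.95 in scrambled and TET1-si cells, and median-of-ratios scaling gave -1.21 and -1.17. Median-of-ratios scaling gave TET1-si medians of -0.54 under hypoxia and -0.46 under normoxia, and upper-quartile scaling -0.51 and -0.46. With either one 4 members were 2-fold lower under normoxia, against 7.41% and 7.48% of all genes. Less the median of all genes the members stood at -1.14 to -1.16, -1.11 to -1.12, -0.50 to -0.51 and -0.44 to -0.45 in the 4 comparisons under these scalings. With every scaling 12 members were 2-fold lower in hypoxia in both states, against 20 as deposited. For calls under every scaling no share of all genes was computed. With no pseudocount, 1 member (TCOF1) had a difference of responses of -1 or less. A fold of 1.5, chosen after seeing the data, gave 9 members lower with TET1-si under hypoxia and 7 under normoxia. Of all genes, 16.78% and 12.02% were lower by that fold. In the difference of responses 1 member was past that size downward, against 16.74% of all genes. Upward 0 members were, against 11.06% of all genes. In the 250 bases before the start 10.7% of member promoters held CACGTG, against 7.73% of all promoters and 11.4% of those of genes with at least 1 FPKM. No paired analysis was possible because the groups share 1 replicate number only. A fit that takes the libraries of the other factor as replicates was not run. With 1 library per group no replicate could be left out. Depth sets the counting intervals, at most 0.23 to either side on the log2 scale in the 4 comparisons and 0.26 for the difference of responses, and says nothing of variation between cultures.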
